A study of Mus musculus with 32 samples.

Results

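The adipogenic transcription factors described here are 10 genes: Pparg, Cebpa, Cebpb, Cebpd, Rxra, Srebf1, Klf15, Nr1h3, Stat5a and Stat5b. They were taken by name, through the symbol of their Ensembl identifier, with earlier results of these data known. All 10 were among the 57186 genes listed, and all 10 passed the filter on low counts that left 14428 genes to be tested. The samples were 32 libraries of 3T3-L1 cells, a mouse preadipocyte line that becomes lipid-laden adipocytes after a hormonal cocktail of insulin, dexamethasone and IBMX. The adipocytes were exposed for 24 h to SCO, CAP7, rosiglitazone (ROSI) or the DMSO vehicle. Each of these 4 treatments was given with TNF-alpha (TNF) and without it (called basal in the labels), which makes 8 groups of 4 libraries labelled as biological replicates. Every group was the same cell line and had passed through the same differentiation. The labels do not define SCO or CAP7, the title of the series names an extract of Artemisia scoparia, and no dose is given. ROSI is a known agonist of PPARγ. Nothing in the labels says whether the replicates came from separate differentiations. The p-values therefore judge group differences only against the spread between these libraries, estimated over all 8 groups together.

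Fat cell differentiation runs as a cascade of these factors. Cebpb and Cebpd are switched on early by the hormonal cocktail, and their proteins activate the genes of PPARγ (Pparg) and C/EBPα (Cebpa), which then sustain each other and hold the mature adipocyte in its differentiated state. PPARγ binds DNA as a heterodimer with the retinoid X receptor, of which RXRα (Rxra) is one form, and so does the oxysterol receptor LXRα (Nr1h3). SREBP-1 (Srebf1) drives genes of fatty acid synthesis, KLF15 (Klf15) is a glucocorticoid-responsive activator of adipocyte genes, and STAT5A and STAT5B carry signals of growth hormone and prolactin receptors from JAK2 to the nucleus. TNF is an inflammatory cytokine long known to lower Pparg and Cebpa in 3T3-L1 adipocytes.

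Promoter sequence is shown for Pparg, Cebpa and Klf15, because the results turn on these 3 genes. The sequences are the 250 bases before a transcription start in RefSeq's annotation of the mouse build GRCm38.p6, all on the plus strand, and they were matched to the genes by symbol. RefSeq windows were found for 9 of the 10 genes, 17 windows in all, with 3 for Pparg. The first Pparg window shown is chr6:115360894-115361143 and the second is chr6:115421816-115422065, near a start farther along the same gene. The Cebpa window is chr7:35119043-35119292 and the Klf15 window is chr6:90462326-90462575. Capitals mark AGGTCA, the core of nuclear receptor sites, in the first Pparg window, the C/EBP letters TTNNGNAA on either strand in the second, and the E-box CACGTG in Klf15.
Pparg, upstream start: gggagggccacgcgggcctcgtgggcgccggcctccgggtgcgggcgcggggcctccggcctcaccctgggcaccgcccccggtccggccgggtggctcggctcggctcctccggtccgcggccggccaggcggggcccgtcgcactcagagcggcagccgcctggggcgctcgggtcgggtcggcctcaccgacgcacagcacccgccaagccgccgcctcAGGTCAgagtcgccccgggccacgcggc
Pparg, downstream start: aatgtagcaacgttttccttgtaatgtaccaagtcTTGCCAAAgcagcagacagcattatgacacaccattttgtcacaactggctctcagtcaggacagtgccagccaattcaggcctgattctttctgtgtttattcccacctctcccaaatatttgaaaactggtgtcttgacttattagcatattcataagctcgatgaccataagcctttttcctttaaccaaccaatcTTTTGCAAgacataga
Cebpa: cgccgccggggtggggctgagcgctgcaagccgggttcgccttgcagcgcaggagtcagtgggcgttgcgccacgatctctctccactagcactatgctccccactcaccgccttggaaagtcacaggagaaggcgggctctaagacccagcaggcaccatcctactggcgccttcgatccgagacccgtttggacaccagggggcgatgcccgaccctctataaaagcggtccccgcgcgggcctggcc
Klf15: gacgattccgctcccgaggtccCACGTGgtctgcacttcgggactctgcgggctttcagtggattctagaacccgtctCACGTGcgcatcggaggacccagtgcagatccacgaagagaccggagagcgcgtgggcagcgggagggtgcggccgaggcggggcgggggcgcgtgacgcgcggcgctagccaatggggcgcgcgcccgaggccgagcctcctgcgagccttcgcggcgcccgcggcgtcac

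The upstream Pparg window holds AGGTCA at 28 to 23 bases before the start, and the downstream window holds C/EBP letters at 215 to 208 and at 16 to 9 bases before its start. The Pparg window that is not shown, chr6:115362099-115362348, also holds AGGTCA, at 9 to 4 bases before its start. The Klf15 window holds the E-box at 228 to 223 and at 172 to 167 bases before the start. No match to the motifs searched was present in the Cebpa window, which says only that those letters are not in these 250 bases. Both strands were searched, and none of the marked matches overlaps another. Among all 32851 RefSeq windows of this length, 36.8% hold TTNNGNAA, 14% hold AGGTCA and 6.02% hold CACGTG, so single matches to the first motif are common. A STAT motif, TTCNNNGAA, was present in 7.02% of all windows and in no window of these genes, and the sterol response element TCACNCCAC was present in 1.05% and likewise in none. A motif for NF-κB, present in 7.25% of all windows, was found in 1 window of Srebf1 and 1 of Stat5a. These matches describe letters, and binding was not measured.

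Library totals ran from 11312837 to 37675008 counts with a median of 20869728. A member gene had between 169 and 13691 counts in a library. A gene is called higher or lower where its adjusted p in edgeR's quasi-likelihood test, adjusted by Benjamini and Hochberg over all 14428 genes tested, was under 0.05. Levels are given as CPM, counts scaled to a common library total with TMM factors, and they are compared between groups, not between genes. The method reads the 3' ends of transcripts, so forms of a gene that start at different promoters and share an end, such as those of Pparg, were counted together. Of 6 adipocyte markers, Adipoq, Fabp4, Plin1, Cidec and Retn were abundant in every group, and Lep did not pass the filter. The 5 fell with TNF in DMSO and rose with each compound in the presence of TNF. The summed level of the list was 8289 to 10099.7 CPM in DMSO with TNF and 27611 to 29361 CPM in DMSO without TNF, and in the 3 groups with a compound and TNF it ran from 27386 to 55531 CPM. Fabp4 made up most of that sum, at 168%, 164% and 266% of its mean in DMSO without TNF for SCO, CAP7 and ROSI with TNF. The other 4 stayed below that mean in the same groups, Adipoq at 36.4% to 51.5%, Retn at 23.7% to 32.6%, Plin1 at 57.3% to 74.5% and Cidec at 41.8% to 92.7%. Preadipocyte and fibroblast markers, of which 5 of 6 passed the filter and with TNF 1 rose and 3 fell, summed to 575 to 641 CPM in DMSO with TNF and 919 to 1077 CPM in DMSO without TNF. Of 6 macrophage and leukocyte markers 3 passed the filter, and the list summed to 10.6 to 14.1 CPM in DMSO with TNF and 1.78 to 4.03 CPM in DMSO without TNF. Cd68 was the only one of them that changed, and Adgre1, Ptprc and Itgam did not pass the filter. Endothelial and mural markers summed to at most 6.34 CPM in any library. In bulk RNA, fewer cells in the adipocyte state and less of an RNA per cell cannot be told apart. The part of the marker shifts in the results below was not tested.

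**Figure D1:**
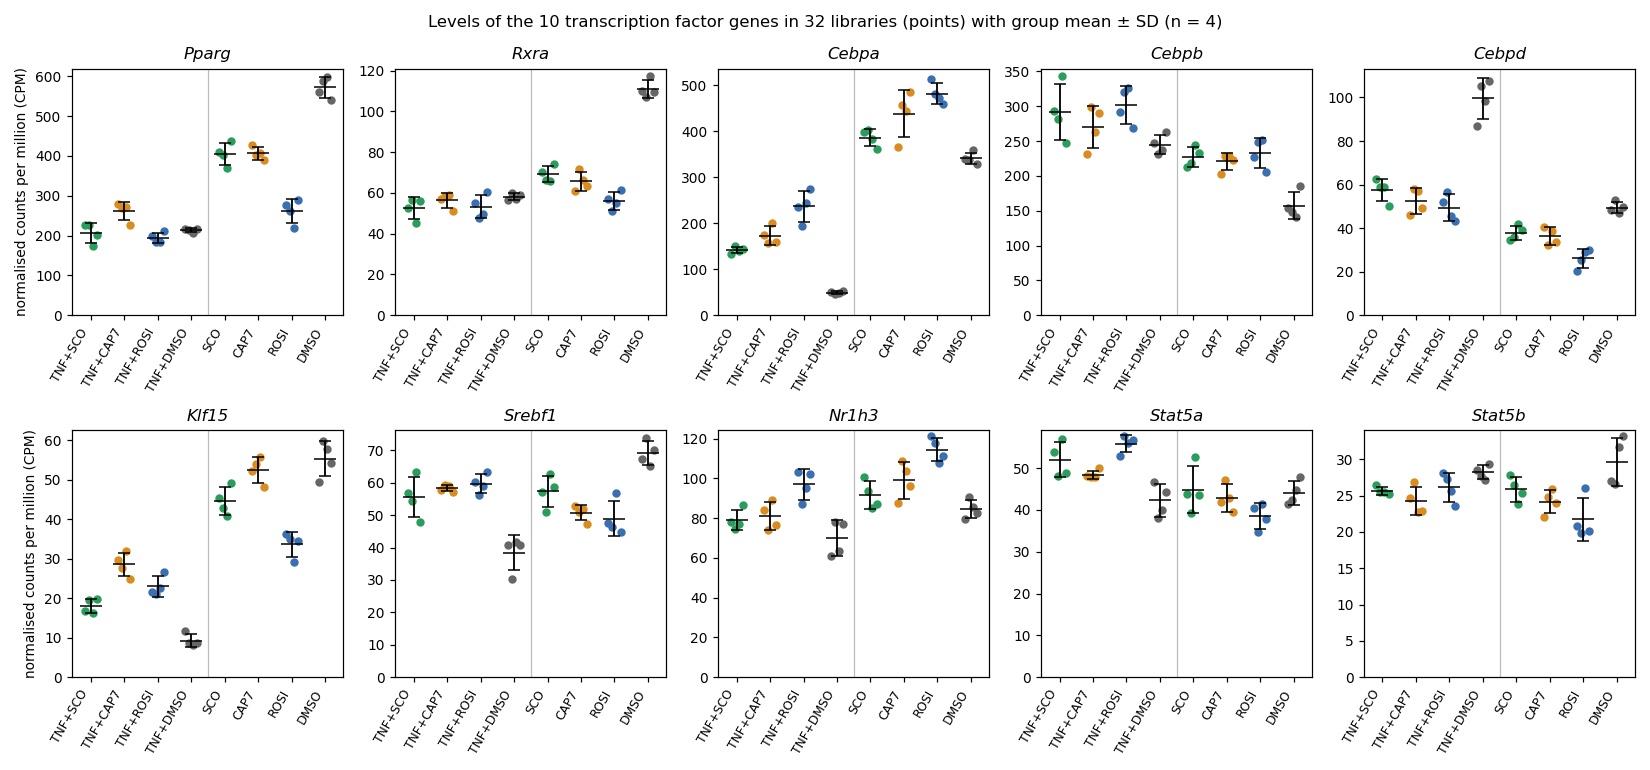
Levels of the 10 genes in all 32 libraries, 1 panel a gene, in CPM after TMM scaling (linear axes from 0). Points are libraries, bars are group means with SD over 4 libraries. Cebpa and Klf15 sit lowest in DMSO with TNF and higher with each compound and TNF, whereas Pparg sits at 278 CPM or less in every library with TNF.

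TNF changed 8 of the 10 genes in vehicle-treated adipocytes, against 54.2% of all genes tested. Cebpa, Klf15, Pparg, Rxra, Srebf1 and Nr1h3 fell, Cebpb and Cebpd rose, and Stat5a and Stat5b were not called. The largest of these changes were those of Cebpa and Klf15, which averaged 14.4% and 16.6% of their mean in DMSO without TNF. The pair of early C/EBPs moved opposite to Cebpa: Cebpb averaged 156% and Cebpd 201% of the level in DMSO without TNF. The median log2 fold change was -0.56 over the 10 genes and -0.013 over all genes tested.

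Pparg (ENSMUSG00000000440) encodes PPARγ, the nuclear receptor needed to form and maintain fat cells and the target of ROSI. With DMSO, its level was 217, 213, 207 and 217 CPM in the libraries with TNF and 561, 588, 598 and 540.5 CPM in those without. Every library with TNF lay below every library without it, a fall to 0.374 of the level in DMSO without TNF (log2 fold change -1.42 ± 0.079 SE, edgeR adjusted p = 3.76e-18). Without TNF, Pparg stood at 409.8, 402, 369 and 438 CPM with SCO, 426, 403, 407 and 389 CPM with CAP7 and 277, 262, 219 and 289.9 CPM with ROSI, all below the DMSO libraries. It fell with each compound, by the least with CAP7 (log2 fold change -0.49 ± 0.078 SE, edgeR adjusted p = 3.91e-06) and SCO (log2 fold change -0.50 ± 0.078 SE, edgeR adjusted p = 7.56e-06). The fall was deepest with ROSI (log2 fold change -1.13 ± 0.079 SE, edgeR adjusted p = 1.57e-14), the receptor's own agonist. With TNF, the levels were 227, 225, 173 and 202 CPM with SCO, 278, 268, 272 and 228 CPM with CAP7 and 199.9, 185, 183 and 210.3 CPM with ROSI. Here CAP7 alone of the 3 compounds passed the test, with all 4 libraries above those of DMSO with TNF (log2 fold change 0.29 ± 0.078 SE, edgeR adjusted p = 0.00348). The SCO libraries overlapped those of DMSO with TNF, with a log2 difference of -0.049 (95% interval -0.21 to 0.11, edgeR adjusted p = 0.735). With ROSI the log2 difference was -0.14 (95% interval -0.30 to 0.022, edgeR adjusted p = 0.183), also with overlapping libraries. The CAP7 call was lost with library sizes alone (edgeR adjusted p = 0.0561, log2 fold change 0.19). Under that scaling the ROSI value was -0.29 and passed (edgeR adjusted p = 0.00215). Leaving out replicate 3 of SCO with TNF turned the sign of the uncalled SCO value, to 0.033.

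In the order of its 8 group means, Pparg was lowest in ROSI with TNF, then SCO, DMSO and CAP7 with TNF, then ROSI, SCO, CAP7 and DMSO without TNF. The ranges of libraries overlapped between ROSI and SCO with TNF, between SCO and DMSO with TNF, between CAP7 with TNF and ROSI without it, and between SCO and CAP7 without TNF. Cells given ROSI and no TNF thus held Pparg at 45.8% of the DMSO mean without TNF, next to 45.7% in CAP7 with TNF and 37.4% in DMSO with TNF.

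Rxra (ENSMUSG00000015846), the gene of PPARγ's partner RXRα, had its highest mean in DMSO without TNF, as did Pparg, Srebf1, Klf15 and Stat5b. In DMSO it had 56.7, 59.8, 56.9 and 59.2 CPM with TNF and 109.9, 107, 117 and 109.5 CPM without, with no overlap (log2 fold change -0.93 ± 0.076 SE, edgeR adjusted p = 2.25e-13). Without TNF it stood at 70.2, 66.3, 65.8 and 74.1 CPM in SCO, 61.0, 71.9, 66.6 and 63.3 CPM in CAP7 and 57.2, 51.0, 55.2 and 61.6 CPM in ROSI. All 12 of these libraries lay below the lowest DMSO library, and Rxra fell in SCO (log2 fold change -0.68 ± 0.076 SE), in CAP7 (-0.76 ± 0.076) and in ROSI (-0.98 ± 0.077), with edgeR adjusted p of at most 1.29e-08. With TNF the levels were 52.8, 56.5, 45.0 and 56.1 CPM in SCO, 56.8, 58.5, 59.0 and 51.1 CPM in CAP7 and 54.9, 47.8, 49.9 and 60.5 CPM in ROSI. None of these 3 groups passed the test against DMSO with TNF, with log2 differences of -0.15 (95% interval -0.30 to 0.0090), -0.046 (-0.20 to 0.11) and -0.13 (-0.28 to 0.026) for SCO, CAP7 and ROSI. The 4 SCO libraries lay below the lowest DMSO library all the same. With library sizes alone, without the TMM factors, SCO (-0.22, edgeR adjusted p = 0.0311) and ROSI (-0.29, edgeR adjusted p = 0.00185) passed for Rxra. In the order of its means Rxra was lowest in SCO with TNF, followed by ROSI with TNF, ROSI without TNF, CAP7 and DMSO with TNF, each overlapping the next, then CAP7, SCO and DMSO without TNF, where CAP7 and SCO overlapped.

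Cebpa (ENSMUSG00000034957), whose protein works beside PPARγ at many adipocyte genes, fell with TNF and rose with each compound in its presence. In DMSO it had 49.6, 45.8, 48.3 and 52.5 CPM with TNF and 340.0, 337, 359 and 329 CPM without, a fall to 0.144 of the level without TNF (log2 fold change -2.80 ± 0.089 SE, edgeR adjusted p = 9.39e-26). With TNF it stood at 134, 151, 139 and 143 CPM in SCO, 174, 157, 202 and 160.2 CPM in CAP7 and 236, 194, 244 and 274 CPM in ROSI. All 12 libraries lay far above the 4 of DMSO with TNF. Cebpa was 2.89-fold higher with SCO (log2 fold change 1.53 ± 0.086 SE, edgeR adjusted p = 4.69e-17), 3.53-fold higher with CAP7 (log2 fold change 1.82 ± 0.086 SE, edgeR adjusted p = 2.09e-19) and 4.82-fold higher with ROSI (log2 fold change 2.27 ± 0.087 SE, edgeR adjusted p = 1.25e-22). These levels were 41.6%, 50.7% and 69.4% of the mean in DMSO without TNF, and each remained below it in the test. Without TNF, Cebpa was at 399, 402, 384 and 361 CPM in SCO, 365, 458, 445 and 485 CPM in CAP7 and 513, 481, 472 and 459.5 CPM in ROSI. It rose with CAP7 (log2 fold change 0.36 ± 0.082 SE, edgeR adjusted p = 0.000692) and ROSI (log2 fold change 0.50 ± 0.082 SE, edgeR adjusted p = 5.24e-06). The SCO difference did not pass, although its libraries did not overlap those of DMSO (log2 fold change 0.18 ± 0.082 SE, edgeR adjusted p = 0.128). That SCO value did pass in the fit of only the 2 groups' libraries (adjusted p = 0.0162). The order of its means, low to high, was DMSO, SCO, CAP7 and ROSI with TNF and then DMSO, SCO, CAP7 and ROSI without TNF, with overlaps between CAP7 and ROSI with TNF, between SCO and CAP7 without TNF, and between CAP7 and ROSI without TNF.

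Cebpb (ENSMUSG00000056501), an early activator of Pparg and Cebpa that also serves acute-phase and cytokine responses, was the one member that was higher than in DMSO without TNF in all 7 other groups. In DMSO its libraries spanned 232 to 263 CPM with TNF and 142 to 185 CPM without (log2 fold change 0.64 ± 0.090 SE, edgeR adjusted p = 1.06e-07). Without TNF it spanned 212 to 244 CPM in SCO, 203 to 229 CPM in CAP7 and 206 to 251 CPM in ROSI, above every DMSO library, and rose in each (log2 fold changes 0.53, 0.49 and 0.57, edgeR adjusted p of at most 3.7e-05). With TNF it spanned 247 to 344 CPM in SCO, 232 to 298 CPM in CAP7 and 268 to 326 CPM in ROSI. ROSI libraries all lay above those of DMSO with TNF (log2 fold change 0.30 ± 0.088 SE, edgeR adjusted p = 0.00643). SCO passed with overlapping libraries (log2 fold change 0.25 ± 0.088 SE, edgeR adjusted p = 0.0365), and CAP7 did not pass (log2 difference 0.14, 95% interval -0.034 to 0.32). The SCO call was lost with any 1 of 5 libraries left out, replicates 1 and 3 of SCO with TNF or replicates 1, 2 and 3 of DMSO with TNF, and also with library sizes alone. In these fits adjusted p was 0.0645 to 0.218, with a log2 fold change of 0.17 to 0.26. The ROSI call was lost with library sizes alone (edgeR adjusted p = 0.185, log2 fold change 0.15). Its means ran from DMSO without TNF through CAP7, SCO and ROSI without TNF to DMSO, CAP7, SCO and ROSI with TNF, and from CAP7 without TNF upward each group overlapped the next.

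Cebpd (ENSMUSG00000071637), the other early C/EBP and likewise a cytokine-responsive gene, rose with TNF and fell with every compound in both states. In DMSO it had 87.0, 105, 98.5 and 107 CPM with TNF and 48.2, 53.1, 47.1 and 49.5 CPM without (log2 fold change 1.01 ± 0.10 SE, edgeR adjusted p = 5.8e-11). With TNF it had 62.4, 58.8, 58.7 and 50.1 CPM in SCO, 45.8, 58.0, 57.2 and 49.4 CPM in CAP7 and 52.1, 56.6, 45.4 and 43.5 CPM in ROSI, all 12 below the lowest library of DMSO with TNF. It fell by 0.79 on the log2 scale with SCO, by 0.92 with CAP7 and by 1.01 with ROSI (SE 0.10, edgeR adjusted p of at most 8.04e-08). Those 3 groups averaged 116%, 106% and 99.9% of DMSO without TNF, and none passed the test against it, with 95% intervals of 0.013 to 0.43, -0.12 to 0.30 and -0.21 to 0.21 on the log2 scale. Without TNF it had 34.5, 35.8, 41.8 and 39.3 CPM in SCO, 40.7, 32.2, 38.7 and 33.8 CPM in CAP7 and 20.5, 25.2, 29.1 and 29.8 CPM in ROSI, below every DMSO library. The log2 fold changes there were -0.39 ± 0.11 (SE) for SCO, -0.44 ± 0.10 for CAP7 and -0.92 ± 0.11 for ROSI, with edgeR adjusted p = 0.00703, 0.000939 and 4.05e-09. Cebpd was lowest in ROSI without TNF and highest in DMSO with TNF, and neither of these groups overlapped its neighbour. In between came CAP7 and SCO without TNF, which overlapped, and then ROSI with TNF, DMSO without TNF, CAP7 with TNF and SCO with TNF, each overlapping the next.

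Klf15 (ENSMUSG00000030087), whose product activates adipocyte genes such as the glucose transporter Slc2a4, fell with TNF nearly as far as Cebpa. In DMSO it had 11.6, 8.61, 8.11 and 8.55 CPM with TNF and 49.5, 59.9, 57.8 and 54.3 CPM without, and TNF lowered it to 0.167 of the level without TNF (log2 fold change -2.59 ± 0.11 SE, edgeR adjusted p = 3.72e-22). With TNF it stood at 16.7, 19.6, 16.3 and 19.7 CPM in SCO, 29.8, 27.8, 31.9 and 24.9 CPM in CAP7 and 21.5, 21.1, 22.7 and 26.7 CPM in ROSI. Each compound's libraries lay above all 4 of DMSO with TNF, and CAP7 gave the highest mean (3.10-fold, log2 fold change 1.63 ± 0.11 SE, edgeR adjusted p = 1.6e-15). Next came ROSI (2.50-fold, log2 fold change 1.32 ± 0.11 SE, edgeR adjusted p = 4.71e-13) and SCO (1.95-fold, log2 fold change 0.97 ± 0.11 SE, edgeR adjusted p = 5.16e-09). These levels came to 32.6% of DMSO without TNF for SCO, 51.6% for CAP7 and 41.5% for ROSI. In cells without TNF it had 45.5, 42.8, 40.9 and 49.3 CPM in SCO, 52.3, 54.1, 55.8 and 48.1 CPM in CAP7 and 36.3, 35.0, 29.1 and 34.4 CPM in ROSI. Here it fell with ROSI (log2 fold change -0.71 ± 0.098 SE, edgeR adjusted p = 1.8e-07) and SCO (log2 fold change -0.31 ± 0.098 SE, edgeR adjusted p = 0.0216). The CAP7 libraries overlapped those of DMSO (log2 difference -0.075, 95% interval -0.27 to 0.12). The fall with SCO was lost with any 1 of 4 libraries left out, replicates 2 and 3 of SCO without TNF or replicates 2 and 3 of DMSO without TNF. The adjusted p there was 0.0607 to 0.0829, with a log2 fold change of -0.29 to -0.27. Klf15 was lowest in DMSO with TNF, then in SCO, ROSI and CAP7 with TNF, then in ROSI, SCO, CAP7 and DMSO without TNF. Ranges overlapped between ROSI and CAP7 with TNF, between CAP7 with TNF and ROSI without it, between SCO and CAP7 without TNF, and between CAP7 and DMSO without TNF.

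Srebf1 (ENSMUSG00000020538), the gene of the lipogenic factor SREBP-1, fell with TNF and was higher with each compound in the presence of TNF. In DMSO it had 40.8, 30.3, 41.8 and 40.8 CPM with TNF and 67.4, 73.9, 65.1 and 70.0 CPM without (log2 fold change -0.84 ± 0.087 SE, edgeR adjusted p = 1.05e-10), and replicate 2 with TNF stood apart from the other 3 as the lowest. With TNF it had 56.9, 54.3, 63.1 and 48.0 CPM in SCO, 57.8, 59.3, 58.9 and 57.2 CPM in CAP7 and 60.3, 56.1, 59.0 and 63.3 CPM in ROSI, all above every library of DMSO with TNF. The log2 fold changes were 0.53 ± 0.086 (SE) for SCO, 0.60 ± 0.086 for CAP7 and 0.63 ± 0.087 for ROSI, with edgeR adjusted p of at most 8.24e-06. Without TNF the same compounds lowered it, to 57.3, 50.8, 62.6 and 58.7 CPM in SCO, 52.7, 50.8, 52.0 and 47.4 CPM in CAP7 and 47.5, 46.4, 57.0 and 44.9 CPM in ROSI, below every DMSO library. It fell by 0.45 on the log2 scale with CAP7 (edgeR adjusted p = 9.16e-05), by 0.50 with ROSI (edgeR adjusted p = 1.32e-05) and by 0.27 with SCO (edgeR adjusted p = 0.0251). The fall with SCO was lost with any 1 of 2 libraries left out, replicate 2 of SCO without TNF or replicate 2 of DMSO without TNF. That put adjusted p at 0.0903 to 0.115, with a log2 fold change of -0.23 to -0.22. Between its lowest group, DMSO with TNF, and its highest, DMSO without TNF, the other 6 groups (ROSI and CAP7 without TNF, SCO with and without TNF, CAP7 and ROSI with TNF, from low to high) formed a run in which each overlapped the next.

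Nr1h3 (ENSMUSG00000002108), the gene of LXRα and a known PPARγ target in adipocytes, lay within 0.47 of 0 on the log2 scale in each of the 7 comparisons with DMSO or with TNF plotted further on. In DMSO it spanned 60.9 to 77.9 CPM with TNF and 79.7 to 90.5 CPM without (log2 fold change -0.28 ± 0.082 SE, edgeR adjusted p = 0.00434), without overlap. With ROSI it spanned 86.9 to 103 CPM with TNF, above all libraries of DMSO with TNF (log2 fold change 0.47 ± 0.082 SE, edgeR adjusted p = 1.08e-05). It spanned 108 to 121 CPM without TNF, above all of DMSO without TNF (log2 fold change 0.44 ± 0.082 SE, edgeR adjusted p = 4.03e-05). CAP7 was higher than DMSO with TNF, at 74.2 to 89.2 CPM (log2 fold change 0.22 ± 0.082 SE, edgeR adjusted p = 0.0394). CAP7 was also higher without TNF, at 87.4 to 109 CPM (log2 fold change 0.23 ± 0.082 SE, edgeR adjusted p = 0.0327), and libraries overlapped in both cases. The call with TNF was lost with any 1 of 4 libraries left out, replicates 1 and 3 of CAP7 with TNF or replicates 1 and 3 of DMSO with TNF, and also with library sizes alone, with no filter on low counts and in the fit of only the compared libraries. It had adjusted p of 0.0539 to 0.297, with a log2 fold change of 0.11 to 0.21. The call without TNF was lost with any 1 of 5 libraries left out, replicates 2 and 3 of CAP7 without TNF or replicates 1, 3 and 4 of DMSO without TNF, and also with library sizes alone. Adjusted p was then 0.0537 to 0.296, with a log2 fold change of 0.12 to 0.23. For SCO the log2 differences did not pass, at 0.18 (95% interval 0.013 to 0.34) with TNF and 0.11 (-0.053 to 0.28) without. From DMSO, SCO and CAP7 with TNF through DMSO and SCO without TNF to ROSI with TNF and CAP7 and ROSI without TNF, every group of Nr1h3 overlapped the next.

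Stat5a (ENSMUSG00000004043) and Stat5b (ENSMUSG00000020919), neighbouring genes of the 2 STAT5 proteins, were the members that did not pass the test for TNF in vehicle-treated cells. Stat5a spanned 38.2 to 46.8 CPM with TNF and 41.4 to 48.0 CPM without (log2 difference -0.059, 95% interval -0.22 to 0.11), and Stat5b spanned 27.2 to 29.4 CPM with TNF and 26.5 to 33.3 CPM without (-0.068, -0.24 to 0.11). With TNF, Stat5a spanned 48.2 to 57.1 CPM in SCO and 53.0 to 57.7 CPM in ROSI, above all libraries of DMSO with TNF, and rose in both (log2 fold changes 0.30 and 0.40, edgeR adjusted p = 0.00486 and 9.2e-05). CAP7 with TNF spanned 47.8 to 49.9 CPM, also without overlap, and missed the threshold (log2 fold change 0.20 ± 0.080 SE, edgeR adjusted p = 0.0577). That CAP7 value passed with a stricter filter (at least 5 CPM in 4 libraries), in limma-voom and without replicate 1 of DMSO with TNF. Adjusted p was then 0.0247 to 0.0371. Without TNF no compound passed for Stat5a, with log2 differences of 0.025 for SCO (95% interval -0.14 to 0.19), -0.039 for CAP7 (-0.20 to 0.13) and -0.19 for ROSI (-0.36 to -0.024). The ROSI value passed as lower with library sizes alone (-0.33, edgeR adjusted p = 0.000897). It also passed with the stricter filter (-0.21, edgeR adjusted p = 0.0322) and without replicate 3 of ROSI without TNF (-0.22, edgeR adjusted p = 0.0485). Stat5b without TNF fell with CAP7, to 22.1 to 25.9 CPM (log2 fold change -0.29 ± 0.088 SE, edgeR adjusted p = 0.00968), and with ROSI, to 19.8 to 26.1 CPM (log2 fold change -0.44 ± 0.089 SE, edgeR adjusted p = 9.4e-05). SCO did not pass (log2 fold change -0.19 ± 0.089 SE, edgeR adjusted p = 0.142). With TNF it fell with CAP7, at 22.8 to 26.9 CPM (log2 fold change -0.22 ± 0.086 SE, edgeR adjusted p = 0.0479), and neither SCO (log2 difference -0.14) nor ROSI (-0.11) passed. That CAP7 call was lost with any 1 of 7 libraries left out, replicates 1, 3 and 4 of CAP7 with TNF or replicates 1, 2, 3 and 4 of DMSO with TNF, and also with no filter on low counts. In these fits adjusted p was 0.0558 to 0.142, with a log2 fold change of -0.24 to -0.19. In order of their means Stat5a was lowest in ROSI without TNF and highest in ROSI with TNF, and Stat5b was lowest in ROSI without TNF and highest in DMSO without TNF, with every group overlapping the next in both genes.

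In GENCODE M21, 4 members overlap a protein-coding gene on the other strand, and the labels do not state whether counting used the strand, so reads of such partners cannot be told apart here. The overlapping genes, named after their values were seen, are Stat3 for Stat5a, Tmem189 for Cebpb, Spidr for Cebpd and Rai1 for Srebf1. Stat3, with a median of 4166 counts a library beside 946 for Stat5a, rose with TNF in DMSO (log2 fold change 1.18 ± 0.077 SE) while Stat5a did not pass. Tmem189 fell (-0.58 ± 0.077) where Cebpb rose. Spidr rose (0.43 ± 0.11) as Cebpd did, and Rai1 fell (-0.71 ± 0.12) as Srebf1 did. Stat3 rose with TNF in cells given SCO (1.30), CAP7 (1.23) and ROSI (1.22) too, and Stat5a was called higher with SCO and ROSI. Against DMSO without TNF, Stat3 was higher in SCO (1.16), CAP7 (1.04) and ROSI (1.13) with TNF. Stat5a was called higher there for SCO and ROSI. Against DMSO with TNF, Stat3 was not called with SCO (-0.022) or ROSI (-0.050), where Stat5a rose. The part of Stat3 reads in Stat5a was not tested.

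**Figure D2:**
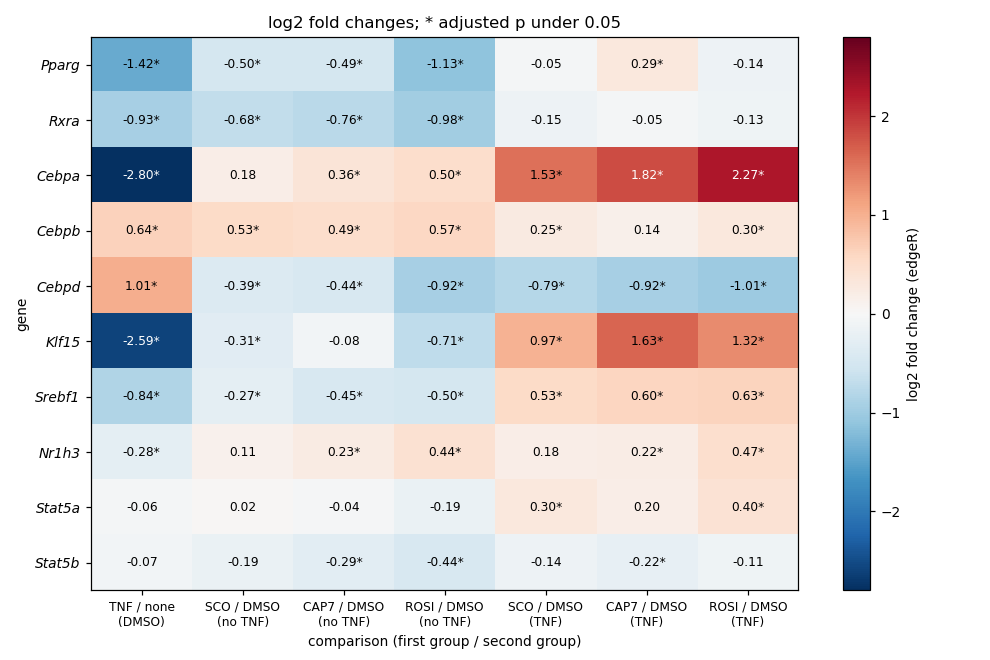
Log2 fold changes from the edgeR fit for the 10 genes (rows) in 7 comparisons (columns), as a heat map with the value in each cell, blue below 0 and red above. A star marks an adjusted p under 0.05. Without TNF all 3 compounds are blue for Pparg, Rxra, Srebf1 and Cebpd, and with TNF all 3 are red for Cebpa, Klf15 and Srebf1.

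Counted over the 10 genes without TNF, SCO had 1 higher and 5 lower against 19.3% of all genes called in either direction, CAP7 had 3 higher and 5 lower against 30.3%, and ROSI had 3 higher and 6 lower against 37.4%. All 3 lowered Pparg, Rxra, Srebf1 and Cebpd and raised Cebpb. With TNF, SCO had 5 higher and 1 lower against 21.3% of all genes, CAP7 had 5 higher and 2 lower against 32.2%, and ROSI had 6 higher and 1 lower against 35.9%. In that state all 3 raised Cebpa, Klf15 and Srebf1 and lowered Cebpd. The median log2 fold change of the 10 genes with TNF was 0.22 for SCO, 0.21 for CAP7 and 0.35 for ROSI, and without TNF it was -0.23, -0.18 and -0.47, while the medians of all genes tested in these 6 comparisons lay between -0.030 and 0.012. The 3 compounds were each set against the same 4 DMSO libraries of a state, so their values are not independent of each other.

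Whether a compound acted differently in the presence of TNF was tested as an interaction, the log2 fold change of the compound with TNF minus that without TNF. For SCO it passed for 5 of the 10 genes, all positive, against 4.64% of all genes. For CAP7 it passed for 6, of which 5 were positive, against 16.2%, and for ROSI for 6, all positive, against 14.6%. Pparg, Cebpa, Rxra, Srebf1 and Klf15 passed for all 3 compounds. Klf15 and Cebpa had the largest values, for Klf15 with ROSI (2.03 ± 0.15 SE, edgeR adjusted p = 1.73e-13), then CAP7 (1.71 ± 0.14 SE) and SCO (1.28 ± 0.15 SE). For Cebpa they were 1.35 for SCO, 1.46 for CAP7 and 1.77 for ROSI (SE 0.12 in each). These 2 genes rose with all compounds in the presence of TNF. In Srebf1 the compounds' effects had opposite signs in the 2 states, with interactions of 0.80 for SCO, 1.05 for CAP7 and 1.13 for ROSI. Pparg and Rxra fell with all 3 compounds without TNF, and their interactions were positive as well: Pparg gave 0.45 for SCO, 0.78 for CAP7 and 0.99 for ROSI, and Rxra gave 0.54, 0.71 and 0.85 in the same order. Stat5a passed for ROSI (0.59 ± 0.11 SE, edgeR adjusted p = 0.000216), and Cebpd passed for CAP7 with a negative value (-0.48 ± 0.14 SE, edgeR adjusted p = 0.0187), a larger fall with TNF than without. This Cebpd call was lost with any 1 of 2 libraries left out, replicate 1 of CAP7 with TNF or replicate 1 of CAP7 without TNF. The adjusted p there was 0.0507 to 0.0509, with an interaction of -0.42. The uncalled SCO interaction of Cebpd passed with no filter (-0.40, edgeR adjusted p = 0.0459). It also passed in the fit of only the compared libraries (-0.42, edgeR adjusted p = 0.023). The Cebpb interaction for CAP7 was negative too and missed the threshold (-0.35 ± 0.13 SE, edgeR adjusted p = 0.0536). It passed with no filter, in DESeq2, in limma-voom, in the fit of only the compared libraries and with any 1 of 4 libraries left out, replicates 2 and 4 of CAP7 with TNF, replicate 1 of CAP7 without TNF or replicate 4 of DMSO without TNF. These had adjusted p of 0.0105 to 0.0466 and values of -0.42 to -0.34. The uncalled ROSI interaction of Cebpb passed without replicate 4 of DMSO without TNF (-0.37, edgeR adjusted p = 0.037). Nr1h3 showed interactions close to 0, with 95% intervals of -0.17 to 0.30 for SCO, -0.25 to 0.22 for CAP7 and -0.20 to 0.27 for ROSI. The interactions of a gene share the DMSO libraries of both states.

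**Figure D3:**
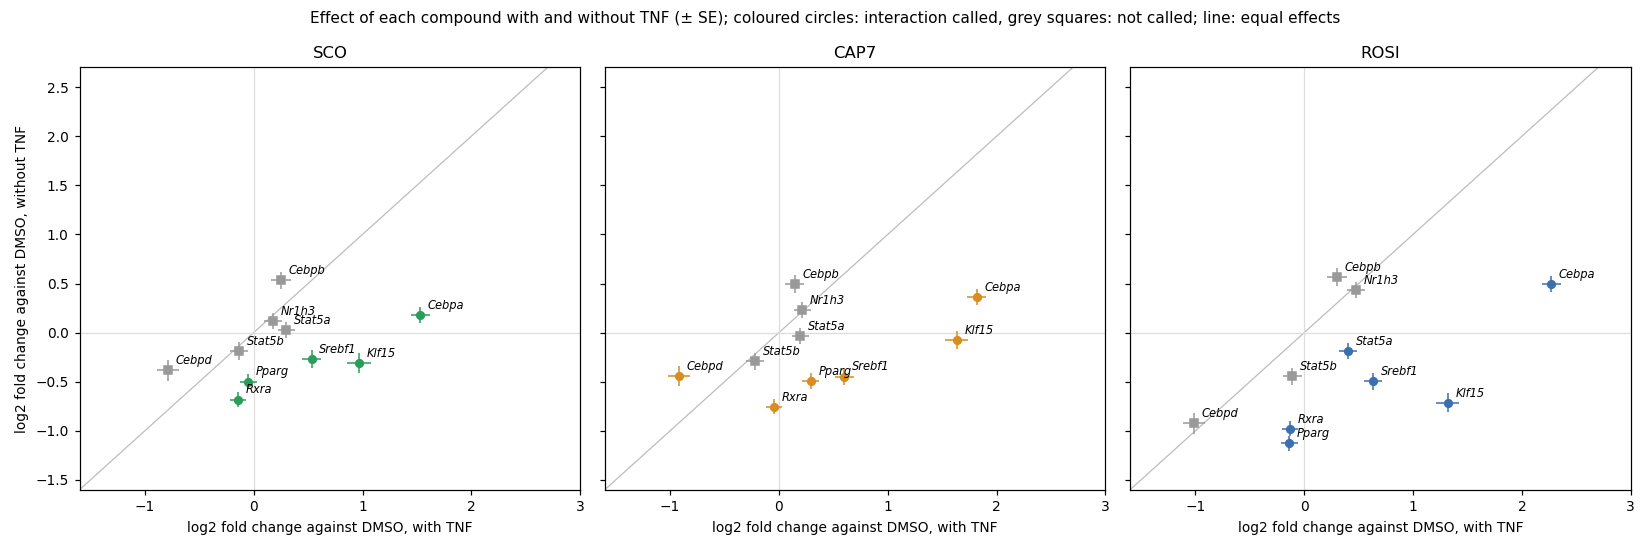
Log2 fold change of each gene against DMSO with TNF (horizontal axis) and without TNF (vertical axis), 1 panel a compound, from the edgeR fit. Bars are standard errors, coloured circles passed the test of the interaction, grey squares did not, and the diagonal marks equal effects. Cebpa, Klf15 and Srebf1 lie right of the diagonal and right of 0, while Pparg and Rxra lie right of the diagonal with values with TNF between -0.15 and 0.29.

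Seen from the side of the cytokine, TNF was also compared with no TNF among cells given the same compound. It changed 8 of the 10 genes in SCO-treated cells (3 higher and 5 lower) against 48.4% of all genes, 7 in CAP7-treated cells (2 higher and 5 lower) against 45.8%, and 9 in ROSI-treated cells (5 higher and 4 lower) against 47.4%. Cebpa fell by 1.45 on the log2 scale in SCO, by 1.34 in CAP7 and by 1.02 in ROSI, against 2.80 in DMSO. Klf15 fell by 1.31 in SCO, by 0.88 in CAP7 and by 0.55 in ROSI, against 2.59 in DMSO. Pparg fell by 0.97 in SCO, by 0.64 in CAP7 and by 0.43 in ROSI, against 1.42 in DMSO. Cebpb rose in all 3 (log2 fold changes 0.36, 0.29 and 0.37), and so did Cebpd (0.60, 0.53 and 0.92). Rxra fell in SCO (-0.40) and CAP7 (-0.22) and was not called in ROSI (-0.083, 95% interval -0.24 to 0.073), while Nr1h3 fell in all 3 (-0.21, -0.29 and -0.24). For Rxra the CAP7 call was lost with any 1 of 2 libraries left out, replicate 4 of CAP7 with TNF or replicate 2 of CAP7 without TNF. That put adjusted p at 0.0737 to 0.0802, with a log2 fold change of -0.18. For Nr1h3 the SCO call was lost with any 1 of 5 libraries left out, replicates 1, 2 and 3 of SCO with TNF or replicates 1 and 2 of SCO without TNF, and also with no filter on low counts. It had adjusted p of 0.0578 to 0.138, with a log2 fold change of -0.21 to -0.16. Its ROSI call was lost without replicate 2 of ROSI with TNF (edgeR adjusted p = 0.0676, log2 fold change -0.19).

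In ROSI-treated cells, TNF raised Srebf1 (log2 fold change 0.28 ± 0.086 SE, edgeR adjusted p = 0.00623), Stat5a (log2 fold change 0.53 ± 0.081 SE, edgeR adjusted p = 6.42e-07) and Stat5b (log2 fold change 0.27 ± 0.088 SE, edgeR adjusted p = 0.0113), none of which rose with TNF in DMSO. The interaction behind this contrast passed for Srebf1 and Stat5a and missed the threshold for Stat5b (0.33 ± 0.12 SE, edgeR adjusted p = 0.0626). That Stat5b interaction passed without replicate 3 of ROSI without TNF, the highest library of its group (0.43, edgeR adjusted p = 0.011). It also passed with the stricter filter and without replicate 4 of ROSI with TNF or replicate 2 of DMSO without TNF, at adjusted p of 0.0375 to 0.0459. Srebf1 stood at 60.3, 56.1, 59.0 and 63.3 CPM in ROSI with TNF and 47.5, 46.4, 57.0 and 44.9 CPM in ROSI without it, and replicate 3 without TNF overlapped the libraries with TNF. Stat5a also rose in SCO-treated cells (log2 fold change 0.22 ± 0.081 SE, edgeR adjusted p = 0.0247), with overlapping libraries. That call was lost with any 1 of 5 libraries left out, replicates 1 and 3 of SCO with TNF or replicates 1, 2 and 4 of SCO without TNF, and also in the fit of only the compared libraries. Adjusted p was then 0.0502 to 0.125, with a log2 fold change of 0.16 to 0.21. In CAP7-treated cells Srebf1 and Stat5a were not called. Both passed there with library sizes alone, with the stricter filter, in limma-voom and in the fit of only the compared libraries. Srebf1 also passed in DESeq2, and Stat5a without replicate 2 of CAP7 without TNF. For Srebf1 these fits gave adjusted p of 0.0149 to 0.0471 (log2 fold change 0.20 to 0.23). For Stat5a they gave 0.0311 to 0.047 (0.18 to 0.23).

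Each compound with TNF was also set against DMSO without TNF, a contrast that joins the effect of the compound with that of TNF. In SCO with TNF, 7 of the 10 genes differed (2 higher and 5 lower) against 47.5% of all genes, in CAP7 with TNF 7 did (1 higher and 6 lower) against 40.6%, and in ROSI with TNF 8 did (3 higher and 5 lower) against 46%. Pparg was lower in all 3, at 36.1%, 45.7% and 34.0% of the mean in DMSO without TNF, and Rxra at 47.4%, 50.8% and 48.0%, with edgeR adjusted p of at most 1.34e-13. With SCO, CAP7 and ROSI and no TNF, Pparg averaged 70.8%, 71.0% and 45.8% of that mean, and Rxra 62.3%, 59.2% and 50.7%. Cebpa reached 69.4% with ROSI and Klf15 reached 51.6% with CAP7, the highest of the 3 compounds for each gene. Srebf1 stood at 80.4% in SCO, 84.4% in CAP7 and 86.3% in ROSI and was called lower in each (log2 fold changes -0.31, -0.24 and -0.21). Its CAP7 call was lost without replicate 2 of DMSO without TNF (edgeR adjusted p = 0.0746, log2 fold change -0.21). The ROSI call was lost with any 1 of 4 libraries left out, replicates 1, 2 and 3 of ROSI with TNF or replicate 2 of DMSO without TNF, and also with no filter on low counts. In these fits adjusted p was 0.0632 to 0.127, with a log2 fold change of -0.22 to -0.18. Cebpd was not called in any of the 3, while Cebpb was higher in all, at 185%, 172% and 192%. In SCO, Cebpd passed as higher with no filter, in the fit of only the compared libraries and without replicate 4 of SCO with TNF. These fits gave adjusted p of 0.0285 to 0.0354 and log2 fold changes of 0.22 to 0.27. Stat5a was higher in SCO (log2 fold change 0.24 ± 0.081 SE, edgeR adjusted p = 0.0128) and ROSI (log2 fold change 0.34 ± 0.081 SE, edgeR adjusted p = 0.000581), and Stat5b was lower in CAP7 (log2 fold change -0.29 ± 0.087 SE, edgeR adjusted p = 0.0077). Stat5b averaged 86.5% in SCO, 81.8% in CAP7 and 88.2% in ROSI. In SCO it passed as lower with RLE factors and in DESeq2. Both SCO and ROSI passed for Stat5b with library sizes alone, the stricter filter and without replicate 1 or 2 of DMSO without TNF. Adjusted p in these fits was 0.0148 to 0.0396 for SCO and 0.00302 to 0.0497 for ROSI. The SCO call of Stat5a was lost with any 1 of 2 libraries left out, replicate 3 of SCO with TNF or replicate 1 of DMSO without TNF. The adjusted p there was 0.0542 to 0.0695, with a log2 fold change of 0.19 to 0.21. Nr1h3 was called higher in ROSI at the edge of the threshold (log2 fold change 0.19 ± 0.082 SE, edgeR adjusted p = 0.0495). Of 16 alternatives 13 lost it, 6 of them with a library left out (replicates 1, 3 and 4 of each group), at adjusted p of up to 0.602.

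**Figure D4:**
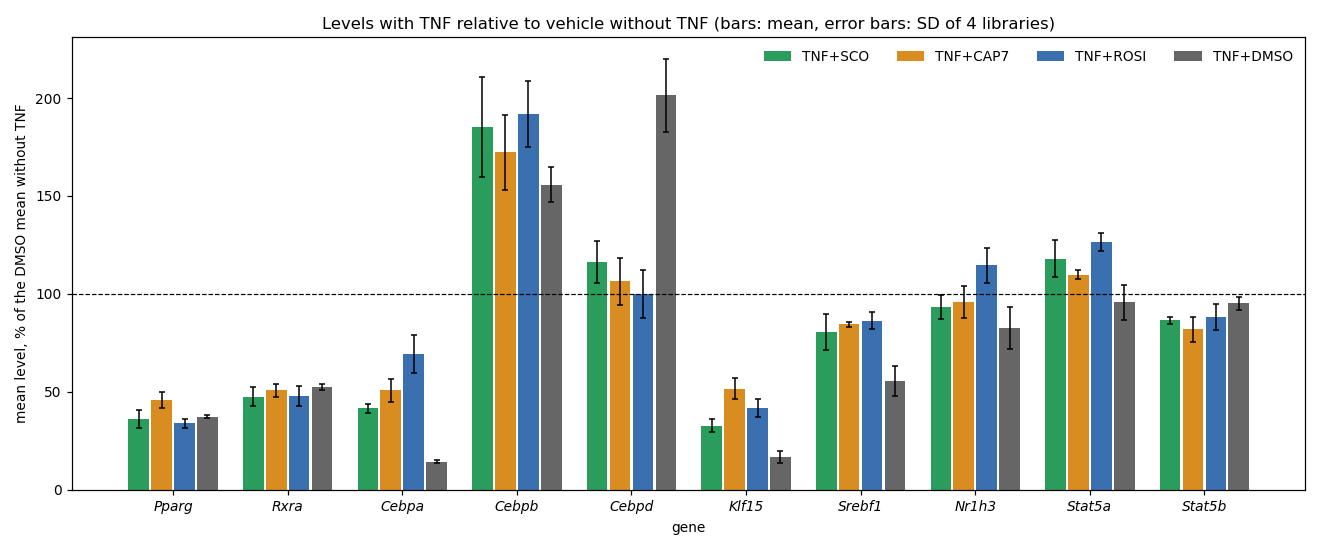
Mean level of each gene in the 4 groups with TNF, as a percent of its mean in DMSO without TNF (dashed line at 100%), with error bars for the SD of 4 libraries. Pparg and Rxra lie between 34.0% and 52.4% in all 4 groups, Cebpa is at 69.4% with ROSI and 14.4% with DMSO, and Cebpd is at 99.9% with ROSI and 201% with DMSO.

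The compounds were also compared with each other in the same state, as 3 pairs without TNF and 3 with it, at doses that the labels do not state, and p-values were adjusted over all genes within a pair. SCO and CAP7 without TNF differed in none of the 10 genes, against 6.04% of all genes. EdgeR, DESeq2 and limma-voom called none of them, and 3 (Cebpa, Srebf1 and Klf15) had an unadjusted p under 0.05 in edgeR. The log2 difference farthest from 0 was that of Klf15, at -0.23 (95% interval -0.43 to -0.037), then Cebpa at -0.18 (-0.35 to -0.015), and that of Pparg was -0.0051 (-0.16 to 0.15). Missing the threshold does not show that SCO and CAP7 act alike on these genes. SCO against ROSI without TNF gave 7 of the 10 (5 higher and 2 lower) against 14.7% of all genes. Pparg (log2 fold change 0.63 ± 0.078 SE, edgeR adjusted p = 2.19e-07), Cebpd (0.54), Klf15 (0.40), Rxra (0.30) and Stat5b (0.26) were higher with SCO, and Cebpa (-0.32) and Nr1h3 (-0.32) were lower. The Stat5b call was lost with any 1 of 6 libraries left out, replicates 1, 2 and 4 of SCO without TNF or replicates 1, 2 and 4 of ROSI without TNF, and also with RLE factors, with no filter on low counts, in DESeq2, in limma-voom and in the fit of only the compared libraries. That put adjusted p at 0.0519 to 0.174, with a log2 fold change of 0.21 to 0.27. CAP7 against ROSI without TNF gave 3, against 11.7% of all genes: Pparg (log2 fold change 0.63 ± 0.078 SE, edgeR adjusted p = 2.17e-07), Klf15 (0.64) and Cebpd (0.48) were higher with CAP7.

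With TNF, SCO against ROSI gave 3 of the 10, all lower with SCO, against 14.4% of all genes: Cebpa (log2 fold change -0.74 ± 0.083 SE, edgeR adjusted p = 1.87e-08), Klf15 (-0.35) and Nr1h3 (-0.29). The Klf15 call was lost with any 1 of 3 libraries left out, replicates 1 and 3 of SCO with TNF or replicate 4 of ROSI with TNF, and also with library sizes alone. It had adjusted p of 0.0566 to 0.104, with a log2 fold change of -0.32 to -0.27. The Nr1h3 call was lost without replicate 3 of SCO with TNF, and also with library sizes alone. Adjusted p was then 0.0533 to 0.0682, with a log2 fold change of -0.26 to -0.21. CAP7 against ROSI gave 4 (2 higher and 2 lower), against 8.57% of all genes. Pparg (log2 fold change 0.43 ± 0.078 SE, edgeR adjusted p = 0.000242) and Klf15 (log2 fold change 0.31 ± 0.10 SE, edgeR adjusted p = 0.0417) were higher with CAP7, and Cebpa (log2 fold change -0.45 ± 0.083 SE, edgeR adjusted p = 0.000233) and Nr1h3 (log2 fold change -0.26 ± 0.081 SE, edgeR adjusted p = 0.0409) were lower. Here the Klf15 call was lost with any 1 of 6 libraries left out, replicates 1, 2 and 3 of CAP7 with TNF or replicates 1, 2 and 3 of ROSI with TNF, and also in the fit of only the compared libraries. In these fits adjusted p was 0.064 to 0.148, with a log2 fold change of 0.26 to 0.33. Here the Nr1h3 call was lost with any 1 of 6 libraries left out, replicates 1, 2 and 4 of CAP7 with TNF or replicates 1, 3 and 4 of ROSI with TNF, and also with library sizes alone and in the fit of only the compared libraries. The adjusted p there was 0.052 to 0.142, with a log2 fold change of -0.28 to -0.21. SCO against CAP7 gave 3, all lower with SCO, against 9.16% of all genes: Klf15 (log2 fold change -0.67 ± 0.10 SE, edgeR adjusted p = 3.02e-05), Pparg (log2 fold change -0.34 ± 0.078 SE, edgeR adjusted p = 0.00415) and Cebpa (log2 fold change -0.29 ± 0.083 SE, edgeR adjusted p = 0.0229). Among these the Cebpa call was lost with any 1 of 4 libraries left out, replicates 1 and 3 of SCO with TNF or replicates 1 and 3 of CAP7 with TNF, and also in the fit of only the compared libraries. That put adjusted p at 0.0513 to 0.141, with a log2 fold change of -0.29 to -0.20. Pparg with TNF was thus higher in CAP7 than in either of the other compounds, while Cebpa with TNF was highest in ROSI and lowest in SCO.

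Genes that act with these factors or downstream of them were read as 9 lists of known regulators and targets, chosen with earlier results of these data known. They hold 121 tested genes in all, and each list is given by its counts and its median log2 fold change. These counts are to be read beside the shares of all genes called in either direction. That share was 54.2% for TNF in DMSO. With TNF it was 21.3% for SCO, 32.2% for CAP7 and 35.9% for ROSI, and without TNF it was 19.3%, 30.3% and 37.4%. The adipocyte markers Adipoq, Fabp4, Plin1, Cidec and Retn are among the PPARγ and C/EBPα targets. Elovl6 and Abcg1, and in single comparisons Thrsp, Socs3, Rxrg and Nfkbia, were named after their values were seen. Of 15 tested targets of PPARγ and C/EBPα, 14 fell and 1 rose with TNF in DMSO (median log2 fold change -2.01, against -0.013 over all genes). Cidec and Plin1, coats of the lipid droplet, fell, with log2 fold changes of -3.85 ± 0.085 and -2.01 ± 0.062 (SE), as did the hormone-sensitive lipase gene Lipe at -2.63 ± 0.081, and Angptl4, an inhibitor of lipoprotein lipase, was the one that rose (1.96 ± 0.063). With TNF all 15 rose with SCO (median 1.29), with CAP7 (1.40) and with ROSI (1.92), although Pparg itself passed the test with CAP7 alone. On the log2 scale Cidec rose by 2.59 ± 0.081 with SCO, 3.01 ± 0.082 with CAP7 and 3.74 ± 0.084 with ROSI. Pck1, a gene of glyceroneogenesis, rose by 4.14 ± 0.16, 4.70 ± 0.16 and 5.93 ± 0.17 in the same order. Without TNF none of the 15 fell: SCO raised 11 (median 0.56), CAP7 raised 13 (0.57) and ROSI raised 12 (1.18), in the state in which Pparg and Rxra fell. With ROSI and no TNF, Retn, Slc2a4 and Lpl were the 3 not called, and with SCO these and Adipoq.

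Of 16 genes that process SREBP-1 or are driven by it, TNF lowered 10 and raised 1 in DMSO (median -1.06), among them Thrsp (-5.37 ± 0.17 SE), Scd1 (-2.38 ± 0.090) and Fasn, the fatty acid synthase gene (-2.68 ± 0.12). The processing genes Mbtps1, Mbtps2 and Insig2 were not called, nor were Elovl6 and Fads2. With TNF, 11 rose with SCO, 11 with CAP7 and 10 with ROSI, the same treatments in which Srebf1 rose, and Thrsp rose by 1.31 ± 0.16, 2.48 ± 0.16 and 2.26 ± 0.16. Elovl6 fell with all 3 compounds (-0.42 ± 0.15, -0.72 ± 0.15 and -0.75 ± 0.15). Without TNF, where Srebf1 fell, the list was mixed: 4 rose and 2 fell with SCO, 5 rose and 1 fell with CAP7, and 3 rose and 4 fell with ROSI, with Thrsp lower and Me1, the gene of malic enzyme, higher in each. Of 7 targets of LXR (median -0.33 for TNF in DMSO), TNF lowered Lpcat3 (-0.90 ± 0.060), Mylip and Apoe and raised Abca1 (0.48 ± 0.076) and Abcg1 in DMSO. Lpcat3, which remodels phospholipids, was the one target that rose with every compound in both states, by 0.70 ± 0.060 with SCO, 0.81 ± 0.060 with CAP7 and 1.18 ± 0.061 with ROSI in the presence of TNF.

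Among 11 tested STAT5 receptors, regulators and targets, TNF raised 4 and lowered 5 in DMSO (median -0.094), and neither Stat5 gene passed. Prlr, the prolactin receptor, fell (-2.56 ± 0.10 SE), as did Igf1 (-1.34 ± 0.080), and Jak2 (2.15 ± 0.098) and the feedback inhibitor Socs3 (1.63 ± 0.10) rose. Without TNF, Igfals, Socs2 and Socs3 fell with each compound, with log2 fold changes for Igfals of -1.31 ± 0.11 with SCO, -2.31 ± 0.11 with CAP7 and -2.96 ± 0.12 with ROSI. With TNF, Prlr rose and Jak2 and Socs3 fell with each compound, Prlr by 0.73 ± 0.10, 1.11 ± 0.099 and 1.22 ± 0.099 for SCO, CAP7 and ROSI. All 10 genes of NF-κB and STAT3 feedback, which report the cytokine signal, rose with TNF in DMSO (median 2.95), among them Nfkbia (2.96 ± 0.073) and Relb (2.95 ± 0.086). With TNF, SCO lowered 6 of them (median -0.22), CAP7 7 (-0.25) and ROSI 7 (-0.34), while Nfkbia itself had log2 fold changes of -0.056 ± 0.067, -0.062 ± 0.067 and -0.20 ± 0.067, of which that with ROSI passed.

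Of 14 other activators of adipogenesis, 5 rose and 7 fell with TNF in DMSO (median -0.12), with Klf9 and Crebl2 not called. Klf5 rose (3.09 ± 0.15 SE) and Klf6 rose (1.38 ± 0.095), and Nfia, which binds beside PPARγ in brown adipocytes, fell (-1.44 ± 0.065), as did Esrra (-1.53 ± 0.081). In the presence of TNF, Esrra rose and Klf6 fell with all 3 compounds (1.00 ± 0.081 and -0.64 ± 0.093 with SCO, 0.93 ± 0.081 and -1.02 ± 0.093 with CAP7, 1.27 ± 0.080 and -0.99 ± 0.094 with ROSI). Of 20 repressors of adipogenesis, 6 rose and 8 fell with TNF, so the list had no single direction (median -0.16): Id1 (-1.69 ± 0.070) and Hes1 (-3.08 ± 0.13) fell and Klf7 rose (1.19 ± 0.089). Klf7 fell with each compound in the presence of TNF, the log2 fold changes being -0.42 ± 0.086 with SCO, -0.62 ± 0.086 with CAP7 and -0.72 ± 0.087 with ROSI. Among 17 tested coactivators and corepressors, TNF lowered 8 and raised 6 (median -0.34), with Nrip1 (-1.81 ± 0.097), Ppargc1b (-2.0 ± 0.12) and Ppargc1a (-1.57 ± 0.15) among the lower. Ppargc1a and Ppargc1b, the PGC-1 coactivators, rose with every compound in both states, Ppargc1a by 1.32 ± 0.15, 1.30 ± 0.15 and 1.96 ± 0.15 with SCO, CAP7 and ROSI in the presence of TNF. Tle3, a corepressor family gene that aids PPARγ in adipocytes, rose as well with TNF present (1.02 ± 0.088, 0.96 ± 0.089 and 1.58 ± 0.089).

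Of 11 tested relatives of the members, 5 rose and 3 fell with TNF in DMSO (median 0.10), and Srebf2, Ppard and Rxrb were not called. Rxrg and Rxrb, the other retinoid X receptors, rose without TNF with all 3 compounds, where Rxra fell: Rxrg by 1.24 ± 0.30 (SE) with SCO, 1.38 ± 0.29 with CAP7 and 1.28 ± 0.30 with ROSI, and Rxrb by 0.35 ± 0.071, 0.33 ± 0.070 and 0.46 ± 0.070. Rxrg was scarce, at 3.86 ± 0.952 CPM in ROSI and 1.62 ± 0.514 CPM in DMSO without TNF (mean ± SD, n = 4 each). Ppara likewise rose without TNF with SCO (1.17 ± 0.28), CAP7 (1.02 ± 0.27) and ROSI (1.39 ± 0.27), where Pparg fell, at 5.96 ± 1.42 CPM in ROSI and 2.28 ± 0.427 CPM in DMSO. Cebpg fell with TNF in DMSO (-0.99 ± 0.055) and rose with each compound in the presence of TNF (0.35 ± 0.054, 0.53 ± 0.054 and 0.63 ± 0.055).

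For each member, the 3 genes with the most similar course over the 8 group means were sought among all tested genes with a symbol, outside the members. The measure was the root mean square difference of log2 CPM, in log2 units, after each gene was centred on its own mean, and the 8 means share their libraries between genes. Nearest to Pparg were Gstk1 (0.089), Tet1 (0.131) and Dbp (0.140). Cebpa lay nearest to G0s2 (0.137), Nrg4 (0.138) and Klb (0.161), whose highest and lowest groups lay 3.64, 3.45 and 3.54 log2 units apart, against 3.29 for Cebpa. G0s2 encodes an inhibitor of the lipase ATGL, and Klb the co-receptor for FGF21. Klf15 lay nearest to Gstz1 (0.143), Ccdc144b (0.158) and Mc5r (0.177), and Cebpd to Hdac7 (0.101), Agtrap (0.104) and Plekhf1 (0.108). For Rxra the genes were Naalad2 (0.084), Pdlim2 (0.091) and Adamts10 (0.095), for Srebf1 Dglucy (0.060), Dennd2d (0.072) and Zfp949 (0.079), and for Cebpb Ell2 (0.058), Sowahc (0.081) and Nfib (0.085). The members with the flattest courses had the closest matches, Zfp574 (0.042), Mrps17 (0.049) and Atg16l1 (0.053) for Nr1h3, Sun2 (0.052), Zdhhc6 (0.061) and Pde12 (0.072) for Stat5a and Zbtb1 (0.049), Zc3h7b (0.050) and Rpl10 (0.053) for Stat5b. Among the other members, Rxra lay nearest to Pparg, at 0.273, and Klf15 nearest to Cebpa, at 0.432, while Cebpa and Pparg were 0.837 apart. Rxra lay almost as near to Stat5b (0.281) and Srebf1 (0.297), and the closest pair of members was Stat5a and Stat5b, at 0.180.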

How the data were processed

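Sequencing of transcript 3' ends (QuantSeq) was used in 32 libraries. The authors deposited whole-number read counts per Ensembl gene. The submitters' processing notes name cutadapt 4.9, STAR 2.7.11b, HTSeq 2.0.5, R 4.4.1, limma 3.60.6 and the GRCm39 build; the strand setting, annotation release and handling of reads with several matches were not stated there. Groups were taken from the labels. The counts as deposited were analysed in R 4.3.3 with edgeR 4.0.16: filterByExpr by group (14428 of 57186 genes kept, 13983 with a symbol), TMM scaling, 1 mean per group over all 32 libraries (residual degrees of freedom 24, biological coefficient of variation 0.112), quasi-likelihood F tests and Benjamini-Hochberg adjustment over all genes tested. Alternatives were RLE factors, library sizes alone, no filter, at least 5 CPM in 4 libraries, DESeq2 1.42.0, limma-voom (limma 3.58.1), a replicate block, only the compared groups, and leaving out each library. Symbols, overlaps and promoters came from GENCODE M21 and RefSeq on GRCm38.p6, with no coordinates moved between builds. From each gene list, up to 4 called genes with the lowest p and the uncalled genes where there were 5 or fewer are named. The members, lists and rules were chosen with earlier results of these data known. Libraries of a group differed by more than sampling noise (chi-square per gene 5.98 to 44.7).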

Additional observations from a re-analysis of the deposited data

Results flagged for a closer look

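Among 80 groups of 4 libraries, 1 for each gene and treatment, 4 held a library whose gap to the nearest other exceeded Dixon's 95% limit, and chance gives about 1 in 20. They were Srebf1 in replicate 2 of DMSO with TNF (30.3 CPM, the lowest), Klf15 in replicate 1 of DMSO with TNF (11.6 CPM, the highest), Stat5a in replicate 4 of CAP7 with TNF (49.9 CPM, the highest) and Stat5b in replicate 3 of ROSI without TNF (26.1 CPM, the highest). The effect of a compound differed between cells with and without TNF, by the interaction in edgeR, in 17 of the 30 gene and compound pairs. Of all genes tested, 4.64% passed for SCO, 16.2% for CAP7 and 14.6% for ROSI. The pairs of a gene share the DMSO libraries, so they are not independent of each other. For SCO the interactions were 0.45 for Pparg, 1.35 for Cebpa, 0.54 for Rxra, 0.80 for Srebf1 and 1.28 for Klf15, in log2 units. For CAP7 they were 0.78 for Pparg, 1.46 for Cebpa, 0.71 for Rxra, 1.05 for Srebf1, 1.71 for Klf15 and -0.48 for Cebpd. For ROSI they were 0.99 for Pparg, 1.77 for Cebpa, 0.85 for Rxra, 1.13 for Srebf1, 2.03 for Klf15 and 0.59 for Stat5a. The summed adipocyte markers moved with TNF and, mainly through Fabp4, with each compound. Without TNF, Fabp4 averaged 195% to 285% of its DMSO mean with the compounds, Cidec 205% to 319% and Plin1 114% to 117%. The uncalled values of Retn averaged 82.8% to 90.0%. Adipoq averaged 92.1% with SCO, 89.8% with CAP7 and 117% with ROSI, of which the one with ROSI passed the test. The part of these markers in the interactions was not tested.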

How the results depend on the processing

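Counts of called genes over all 22 comparisons stayed within 1.5 times the reported ones with every alternative except these. With only the compared groups' libraries, CAP7 against ROSI with TNF gave 791 in place of 1237, and SCO against CAP7 with TNF gave 738 in place of 1322. With 1 library left out, SCO against CAP7 with TNF gave 689 to 1527, the lowest without replicate 3 of SCO, and 723 without replicate 1 of CAP7. SCO against CAP7 without TNF gave 522 to 743 in place of 872, the lowest without replicate 1 of SCO, and the cause was not tested. Scaling by library sizes alone shifted the median of all genes by up to -0.17 on the log2 scale, in ROSI against DMSO without TNF, and by -0.16 in ROSI against DMSO with TNF. It moved the share of higher calls by over 10 percentage points in 14 comparisons. In percent with library sizes alone (in parentheses, with TMM) that share was 35.3 (53.4) for SCO without TNF against DMSO without TNF, 28.8 (50.3) for CAP7 without TNF against DMSO without TNF, 27.8 (49.2) for ROSI without TNF against DMSO without TNF, 44.2 (62.0) for SCO with TNF against DMSO with TNF, 36.9 (55.8) for CAP7 with TNF against DMSO with TNF, 31.7 (54.6) for ROSI with TNF against DMSO with TNF, 40.2 (52.8) for CAP7 with TNF against DMSO without TNF, 36.7 (54.1) for ROSI with TNF against DMSO without TNF, 72.0 (50.2) for SCO without TNF against ROSI without TNF, 57.0 (46.2) for CAP7 without TNF against ROSI without TNF, 71.6 (49.8) for SCO without TNF against CAP7 without TNF, 67.8 (39.9) for SCO with TNF against ROSI with TNF, 61.9 (40.6) for CAP7 with TNF against ROSI with TNF and 61.0 (45.1) for SCO with TNF against CAP7 with TNF. Of the 220 member results, 217 kept direction and side of the threshold with RLE factors, 190 with library sizes alone, 209 with no filter, 210 with the stricter filter, 215 in DESeq2, 213 in limma-voom and 208 with only the compared libraries. With 1 library left out, 1865 of 2000 values did so, 81 lost a call, 22 gained one and 32 changed sign. All 43 values that changed sign were uncalled before and after. With library sizes alone these were Stat5a in SCO without TNF against DMSO without TNF (-0.043), Cebpb in SCO without TNF against ROSI without TNF (0.035), Pparg in SCO without TNF against CAP7 without TNF (0.039), Cebpb in SCO with TNF against ROSI with TNF (0.035), Rxra in SCO with TNF against ROSI with TNF (0.070), Stat5b in SCO with TNF against ROSI with TNF (0.059) and Srebf1 in CAP7 with TNF against ROSI with TNF (0.020). With no filter they were Cebpd in ROSI with TNF against DMSO without TNF (0.0046) and Stat5b in SCO with TNF against SCO without TNF (0.0012), and the CAP7 interaction of Nr1h3 was 0.012 with the stricter filter and 0.0023 in limma-voom. The ranges with 1 library left out that crossed 0 were, Stat5a in SCO without TNF against DMSO without TNF -0.060 to 0.083, Nr1h3 in the CAP7 interaction -0.067 to 0.057, Cebpd in ROSI with TNF against DMSO without TNF -0.077 to 0.054, Stat5b in SCO with TNF against SCO without TNF -0.049 to 0.029, Srebf1 in SCO with TNF against SCO without TNF -0.10 to 0.022, Pparg in SCO without TNF against CAP7 without TNF -0.045 to 0.036, Stat5a in SCO without TNF against CAP7 without TNF -0.021 to 0.12, Stat5b in CAP7 with TNF against CAP7 without TNF -0.046 to 0.038, Stat5a in CAP7 without TNF against DMSO without TNF -0.090 to 0.00059, Nr1h3 in the ROSI interaction -0.039 to 0.084, Pparg in SCO with TNF against DMSO with TNF -0.096 to 0.033, Rxra in SCO with TNF against ROSI with TNF -0.064 to 0.074, Cebpb in SCO with TNF against ROSI with TNF -0.12 to 0.040, Stat5b in SCO with TNF against ROSI with TNF -0.069 to 0.0081 and Nr1h3 in SCO with TNF against CAP7 with TNF -0.080 to 0.014. Replicate numbers were not taken as pairing, since the labels do not state it. Correlations of same-numbered libraries were -0.11 to 0.16 over 112 pairs (median 0.011, against -0.0052 for other numbers). With their own number 16 of 32 libraries correlated best, where chance among 4 numbers gives 1 in 4. This is a hint of shared numbers from the data and not from the design. With the replicate number as a block, 7856 genes were called for TNF in DMSO in place of 7817, 3 member calls were lost (Nr1h3 in ROSI with TNF against DMSO without TNF, Stat5b in SCO against ROSI without TNF and Stat5b in CAP7 against DMSO with TNF), and 2 were gained (Srebf1 for TNF in CAP7-treated cells and Cebpb in the CAP7 interaction). The depth limits Klf15 most, with as few as 169 counts in a library.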
